A study of Mus musculus with 9 samples.

Results

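Ssr1, Ssr3 and Nus1, 3 genes of entry into the endoplasmic reticulum (ER) and of N-glycosylation, were followed in regenerating maxillary bone, out of the 98 genes whose counts were analysed. They were chosen by name, with earlier results of these data known. Each of the 98 genes has an adjusted p under 0.1 in the authors' own comparison of Allograft with Spon. Healing, out of 17100 genes. The difference between the groups therefore chose the genes, so their values are a description, and the calls of the fit across the table are given only beside the number or share of all its genes that were called.

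The tissue came from male C57BL mice, 8 weeks old at surgery, whose maxillary first molar had been extracted. In the Allograft group (5 libraries) the socket was filled with allograft, freeze-dried and ground long bone of C57BL/6 donors, mixed with saline. In the Spon. Healing group (4 libraries) the socket was left to heal without a graft. All mice were sacrificed 2 weeks after the procedure, and RNA was taken from pulverized maxillae. The labels say that the 3 replicates with the most RNA, which the paper calls biological, were used for libraries. That number does not match the 5 and 4 libraries listed, and this was not resolved. Every mouse carried the extraction wound, graft and saline came together, and the labels do not state whether the saline was given once or repeatedly. The question addressed is how the bone that received allograft differed in mRNA from bone that healed alone.

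Proteins bound for secretion or for membranes enter the ER through the Sec61 channel. The translocon-associated protein (TRAP) complex, whose subunits are the signal sequence receptors, sits beside that channel, binds the translating ribosome and helps some signal sequences to open the pore. Ssr1 encodes its alpha subunit, which has a large domain in the ER lumen, and Ssr3 its gamma subunit, which lies largely in the membrane and reaches the ribosome. Nus1 encodes the Nogo-B receptor, which pairs with the catalytic subunit Dhdds to form the enzyme that makes the long isoprenoid precursor of dolichol. Dolichol phosphate is the lipid on which the sugar tree is built before the oligosaccharyltransferase hands it to the nascent protein. Bone-forming cells secrete matrix proteins through this route.

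On GRCm38, Ssr1 (ENSMUSG00000021427) spans bases 37966605 to 37994217 of chromosome 13 and Ssr3 (ENSMUSG00000027828) bases 65379655 to 65392623 of chromosome 3, both transcribed from the minus strand. Nus1 (ENSMUSG00000023068) spans bases 52417547 to 52440183 of chromosome 10 and is transcribed from the plus strand. In the GENCODE M21 annotation no other gene overlaps any of them, and their principal transcripts have 8 exons in Ssr1 and 5 exons in both Ssr3 and Nus1. Ssr1 has 4 coding transcripts with more than 1 end, Ssr3 has 2 and Nus1 has 1, and the counts, which are per gene, do not separate them. The last 500 bases of each principal transcript had no copy of at least 95% identity over 100 bases or more in a transcript of another gene.

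The promoters of Ssr1 and Nus1 are shown because ER stress elements are known in promoters of ER genes. That the members were all higher in Allograft is no ground for it, since this difference chose them. Each window is RefSeq's on GRCm38.p6, with 250 bases before the gene's start and 50 from it, in the direction of transcription. Capitals mark CCACG, the part of the ER stress element that ATF6 contacts, and CCAAT, the part that NF-Y contacts. Ssr1 is chr13:37994159-37994458 on the minus strand, and Nus1 is chr10:52417297-52417596 on the plus strand.
Ssr1: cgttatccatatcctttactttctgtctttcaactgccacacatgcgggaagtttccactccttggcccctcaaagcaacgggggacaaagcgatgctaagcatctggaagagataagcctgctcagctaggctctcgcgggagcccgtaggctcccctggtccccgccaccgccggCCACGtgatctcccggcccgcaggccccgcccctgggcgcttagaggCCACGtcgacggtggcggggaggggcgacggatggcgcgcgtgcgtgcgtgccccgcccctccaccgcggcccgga
Nus1: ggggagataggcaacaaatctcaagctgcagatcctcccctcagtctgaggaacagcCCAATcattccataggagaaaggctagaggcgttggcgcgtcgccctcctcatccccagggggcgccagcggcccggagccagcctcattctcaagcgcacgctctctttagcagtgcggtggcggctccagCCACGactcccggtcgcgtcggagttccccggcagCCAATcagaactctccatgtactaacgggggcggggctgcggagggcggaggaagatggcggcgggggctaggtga
The Ssr1 window held CCACG at -73 to -69 and at -26 to -22, counted from the start, and no CCAAT. The Nus1 window held CCACG at -61 to -57, with CCAAT at -193 to -189 and at -26 to -22.

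Letters this short are common, and their presence is a description, not a site. Searched on both strands, CCACG was in 32.8% of all 32851 promoter windows and CCAAT in 37.4%. The complete ER stress element, CCAAT and CCACG 9 bases apart, was in 0.119% of the windows and in neither of these. The shorter second form of that element, ATTGG and CCACG 1 base apart, was in 0.0365% of the windows and in neither of these. The unfolded protein response element TGACGTGG (0.676% of windows) and the cAMP response element TGACGTCA (1.79%) were absent from both windows as well. TGACG, which both of these elements contain, was in 20.8% of all windows and in neither of the windows shown. Of the 64 genes called higher in Allograft, 43 have a window. Among these 43 genes, 4 held the complete ER stress element, 0 its second form, 30 CCACG and 28 CCAAT. The unfolded protein response element was in 2, the cAMP response element in 1 and TGACG in 24. These are counts of genes, while the shares above are of windows. The 43 genes were called on the contrast that chose the table, and the genes lower in Allograft were not counted apart. Nothing is read from these counts. G and C made up 66.7% of the Ssr1 window and 64.3% of the Nus1 window, against a median of 52.7% over all windows. The part of base composition was not tested.

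Library depth is not known here, because the table holds selected genes only. The size factors by which the authors divided the raw counts were 0.653 to 2.20 in Allograft and 0.577 to 1.44 in Spon. Healing, and the highest belonged to Allograft replicate 4 and Spon. Healing replicate 2. All values called normalized counts below are raw counts divided by these factors. Of 58 marker genes of bone-forming cells, osteoclasts, plasma and B cells, oral epithelium and glands, skeletal muscle and leukocytes, 0 were in the table, so the labelled tissue and its cell makeup could not be checked. In bulk tissue, more cells of a type and more RNA per cell cannot be told apart.

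Ssr1, the alpha subunit of TRAP, had 1412, 1413, 1366, 1346 and 1278 normalized counts in Allograft replicates 1 to 5. In Spon. Healing replicates 1 to 4 it had 1131, 1059, 1021 and 1068. Every Allograft library lay above every Spon. Healing library, and the libraries of each group lay close together. The means were 1363 ± 56.0 (SD, n = 5) in Allograft and 1070 ± 45.8 (SD, n = 4) in Spon. Healing, a log2 fold change of 0.35 (SE 0.10 from edgeR) or 1.27-fold. These values rest on 616 to 2965 raw counts per library.

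Ssr3, the gamma subunit of the same complex, had 693, 778, 662, 516 and 643 normalized counts in Allograft replicates 1 to 5. In Spon. Healing replicates 1 to 4 it had 438, 508, 480 and 430. The groups did not overlap, but they nearly touched, since Allograft replicate 4 was 1.02 times Spon. Healing replicate 2, and these libraries have the largest size factor of their groups. The part of sequencing depth in this was not tested, and the log2 fold change without Allograft replicate 4 was 0.58. The means were 659 ± 94.98 (SD, n = 5) in Allograft and 464 ± 36.7 (SD, n = 4) in Spon. Healing, a log2 fold change of 0.50 (SE 0.13) or 1.42-fold. Raw counts of Ssr3 ran from 248 to 1137 per library.

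Nus1, the dolichol-pathway subunit, had the largest fold change of the 3. It had 402, 513, 382, 347 and 474 normalized counts in Allograft replicates 1 to 5, against 218, 295, 263 and 263 in Spon. Healing replicates 1 to 4. The groups did not overlap, and the lowest Allograft library was 1.18 times the highest Spon. Healing library. The means were 424 ± 68.1 (SD, n = 5) in Allograft and 260 ± 31.9 (SD, n = 4) in Spon. Healing, a log2 fold change of 0.70 (SE 0.17) or 1.63-fold. Nus1 had 152 to 765 raw counts per library, the fewest of the 3 genes.

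**Figure D1:**
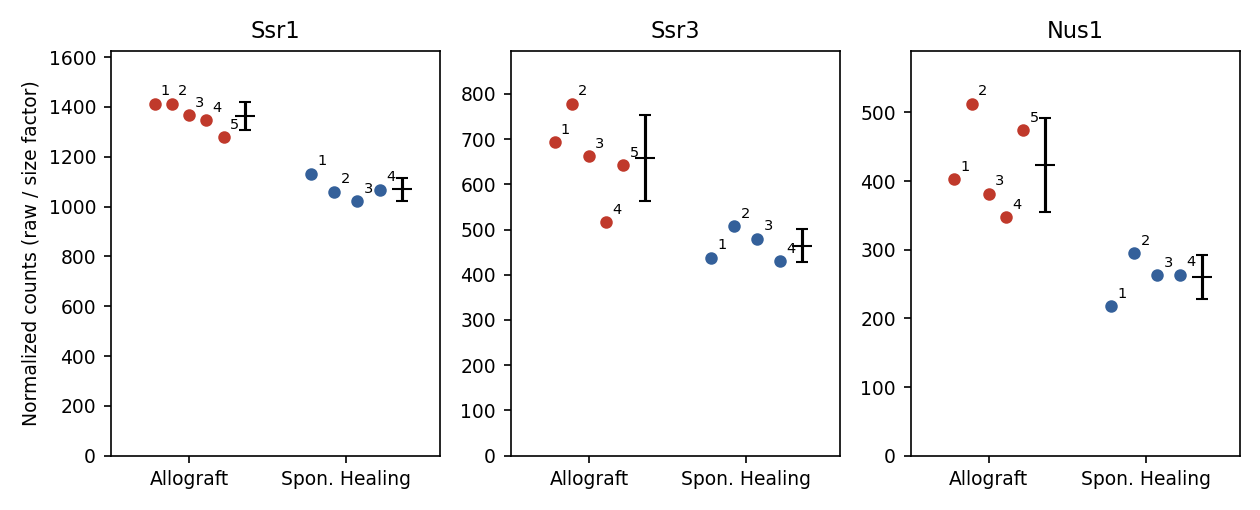
Normalized counts (raw counts divided by the library's size factor) of Ssr1, Ssr3 and Nus1, 1 point per library numbered by replicate, with the mean and SD of each group beside the points. All 5 Allograft points lie above all 4 Spon. Healing points in each panel, most narrowly in Ssr3, where Allograft replicate 4 (516) is just above Spon. Healing replicate 2 (508).

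All 3 members were tested with the rest of the table, and 3 of 3 were called higher in Allograft (edgeR's quasi-likelihood test, Benjamini-Hochberg adjusted p under 0.05), where 66% of the 97 tested genes were called in that direction. Likewise 3 of 3 had no overlap between the groups, against 53.6% of the 97 genes higher without overlap. Since the table was selected on this contrast, nothing is read from these counts. The median log2 fold change was 0.46 over the 97 tested genes. Relative to that median, Ssr1 stood at -0.11, Ssr3 at 0.04 and Nus1 at 0.24. Among the 65 genes with a higher fitted level in Allograft, whose median log2 fold change was 0.56, Nus1 ranked 21, Ssr3 43 and Ssr1 62 by size of fold.

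The level of the difference depended on the scaling. With TMM factors taken from the listed genes themselves, the median of the 97 genes shifted by -0.32 on the log2 scale, and 44 genes were called, 12 of them higher, in place of 96 called with 64 higher. Nus1 then had a log2 fold change of 0.38, Ssr3 of 0.18 and Ssr1 of 0.03, and of the 3 members 1, Nus1, was called. Under that scaling the groups overlapped in Ssr1 (1101 to 1291 in Allograft, 1122 to 1278 in Spon. Healing) and in Ssr3 (495 to 648 in Allograft, 476 to 540 in Spon. Healing). They stayed apart in Nus1 (333 to 427 in Allograft, 246 to 313 in Spon. Healing). TMM assumes that most genes do not differ, which a table of selected genes does not meet. New size factors shift the fold changes of all genes by nearly the same amount, so the position of each member relative to their median could move little. With TMM it was -0.11 for Ssr1, 0.04 for Ssr3 and 0.24 for Nus1.

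**Figure D2:**
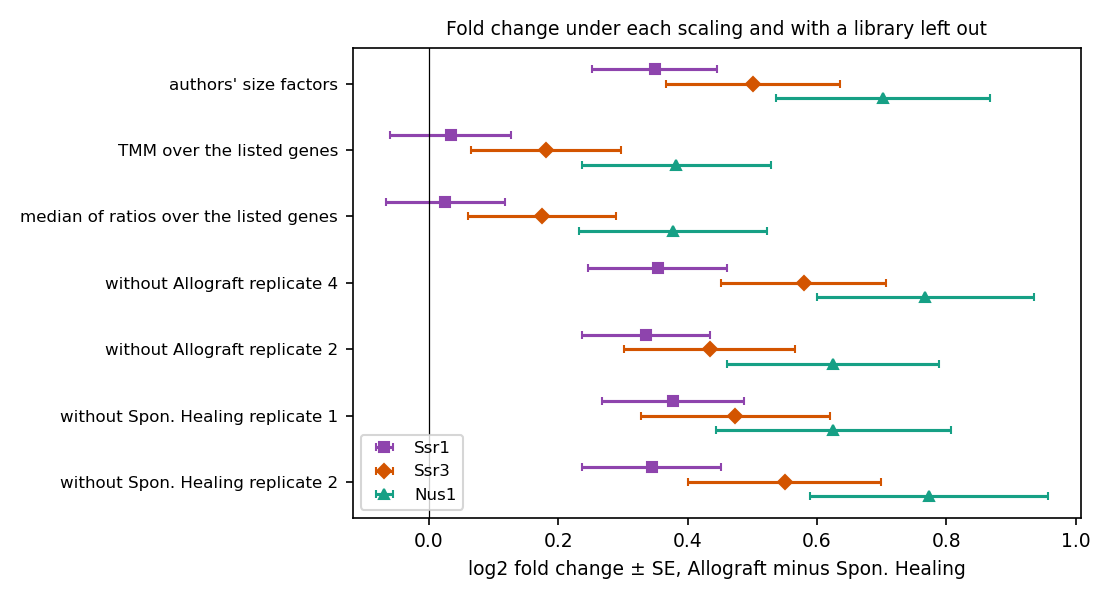
Log2 fold change of each member, Allograft minus Spon. Healing, with its SE from edgeR, under the authors' size factors, under 2 scalings computed over the listed genes, and with a library left out. Nus1 lies highest and Ssr1 lowest in every row, and both scalings over the listed genes bring Ssr1 to 0.03.

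Spread within the groups differed between the members. The coefficient of variation of Ssr1 was 4.11% in Allograft and 4.28% in Spon. Healing, where counting alone would give 2.65% in Allograft and 3.47% in Spon. Healing. For Ssr3 it was 14.4% in Allograft and 7.91% in Spon. Healing, against 3.81% in Allograft and 5.28% in Spon. Healing from counting. For Nus1 it was 16.1% in Allograft and 12.3% in Spon. Healing, against 4.75% in Allograft and 7.05% in Spon. Healing from counting. The pooled SD of log2(normalized count + 1) was 0.06 for Ssr1, the lowest of the 97 tested genes, 0.18 for Ssr3 and 0.21 for Nus1, with a median of 0.26 over the 97. A table selected on a difference relative to its error admits a small difference mainly where the spread is small, so the low spread of Ssr1 is given as a description.

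**Figure D3:**
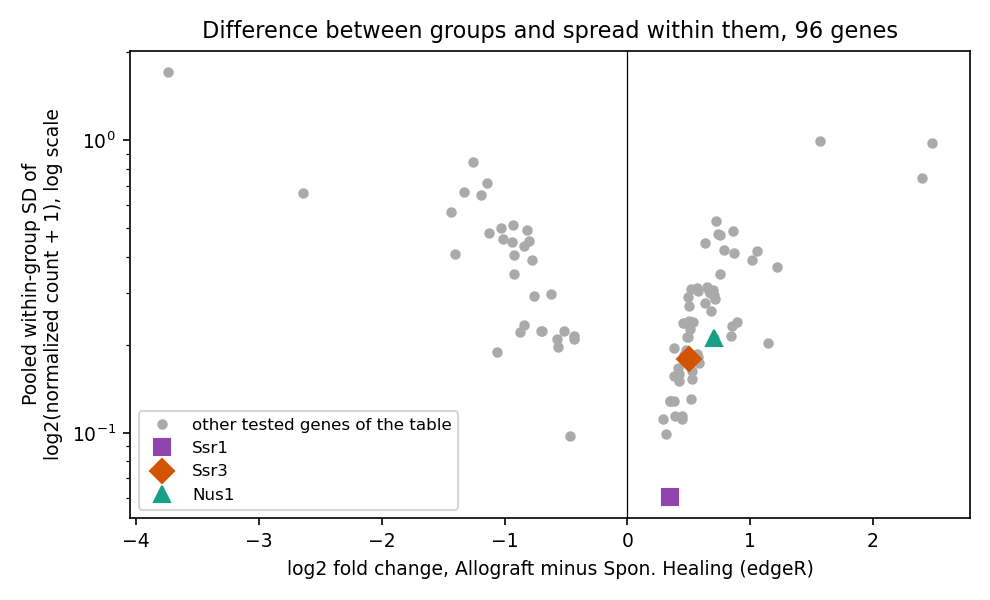
Pooled within-group SD of log2(normalized count + 1), on a log axis, against the log2 fold change for 96 of the tested genes, with the members marked. The 1 gene with no counts in Spon. Healing is not drawn. Ssr1 has the lowest SD (0.06), and Ssr3 (0.18) and Nus1 (0.21) lie among the other genes higher in Allograft.

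The ratio of 2 members within a library does not depend on the size factor, so each pair was also taken as a share of its summed raw counts. These shares compare libraries, not the levels of the genes. Ssr1 made up 67.1%, 64.5%, 67.4%, 72.3% and 66.5% of the Ssr1 and Ssr3 counts in Allograft replicates 1 to 5, and 72.1%, 67.6%, 68.0% and 71.3% in Spon. Healing replicates 1 to 4. Allograft replicate 4, with a Wilson 95% interval of 70.9 to 73.6%, stood level with the highest Spon. Healing library, replicate 1. The other 4 Allograft libraries stood under every Spon. Healing library, but the nearest were almost equal. Allograft replicate 3 had an interval of 65.5 to 69.2% and Spon. Healing replicate 2 one of 65.6 to 69.5%. Intervals cover counting error only. The mean share was 67.5 ± 2.88% (SD, n = 5) in Allograft and 69.8 ± 2.28% (SD, n = 4) in Spon. Healing, and this difference of -2.21 percentage points was smaller than the SD within Allograft. It was -3.40 points without Allograft replicate 4, -1.45 without Allograft replicate 2, -1.43 without Spon. Healing replicate 1 and -0.97 with the counts of each group pooled.

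Nus1 took a larger share beside either TRAP subunit in Allograft, with overlapping groups. Its share of the Nus1 and Ssr1 counts was 23.6 ± 3.00% in Allograft (SD, n = 5, range 20.5 to 27.1%) and 19.5 ± 2.43% in Spon. Healing (SD, n = 4, range 16.1 to 21.8%). Allograft replicates 2 and 5 were the highest at 26.6% and 27.1%, and Spon. Healing replicate 1 the lowest at 16.1%. Its share of the Nus1 and Ssr3 counts was 39.1 ± 2.50% in Allograft (SD, n = 5, range 36.6 to 42.5%) and 35.8 ± 2.05% in Spon. Healing (SD, n = 4, range 33.2 to 38.0%). No test was made, since all 3 genes were chosen on the same contrast.

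**Figure D4:**
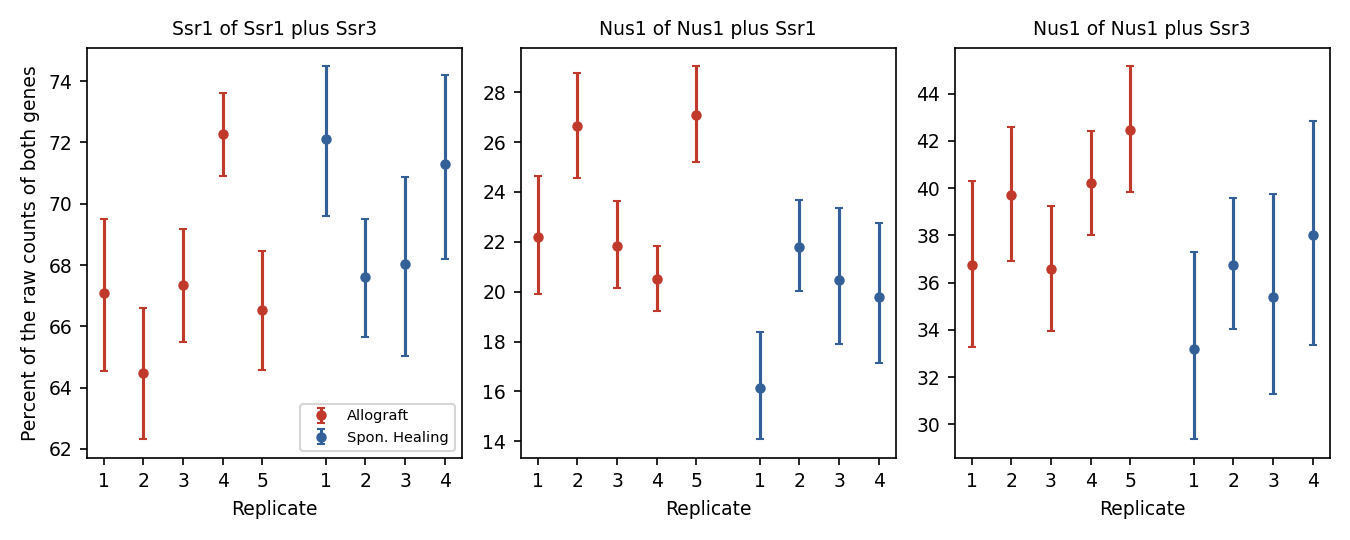
Share of the first gene in the summed raw counts of each pair of members, in percent, for each library, with Wilson 95% intervals. The y axes do not start at 0. In the first panel Allograft replicate 4 (72.3%) stands with the Spon. Healing libraries, and in the second Allograft replicates 2 and 5 (26.6% and 27.1%) stand highest.

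Within the groups, Ssr3 and Nus1 deviated together in some libraries and with opposite signs in others, and Ssr1 deviated over a narrower range. After the group mean of log2(normalized count + 1) was subtracted, Allograft replicate 2 was the highest Allograft library for both Ssr3 (0.25) and Nus1 (0.29), and Allograft replicate 4 the lowest for both (-0.34 for Ssr3, -0.27 for Nus1). In Spon. Healing, replicate 2 was the highest for both (0.13 for Ssr3, 0.19 for Nus1), but replicate 4 was the lowest for Ssr3 and replicate 1 for Nus1. The signs were opposite in Allograft replicate 1 (0.09 for Ssr3, -0.06 for Nus1), replicate 3 (0.02 and -0.14) and replicate 5 (-0.02 and 0.18). They were also opposite in Spon. Healing replicate 4 (-0.11 for Ssr3, 0.03 for Nus1). Ssr1 deviated by -0.09 to 0.08 over all libraries. Over the 9 libraries the Pearson correlation of these deviations was 0.75 between Ssr3 and Nus1, 0.19 between Ssr1 and Ssr3 and -0.27 between Ssr1 and Nus1. It was 0.50, -0.37 and -0.91 for the same pairs with TMM factors over the listed genes, so the value depends on the scaling, and an error in a size factor is shared by all genes of a library. These correlations describe 9 libraries and carry no test.

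The genes most like each member were taken by the same correlation among the 95 other genes that averaged 10 counts or more. For Nus1 they were Dnajc3 (r = 0.94), a co-chaperone of BiP in the ER lumen, the threonyl-tRNA synthetase Tars (0.88) and Palmd (0.87). For Ssr3 they were the small GTPase Rhoq (0.86), the protein disulfide isomerase Pdia6 (0.83) and Lman1 (0.79), a cargo receptor for glycoproteins that leave the ER. For Ssr1 they included the cytosolic chaperone Hspa8 (0.71) and Sec24d (0.68), a coat protein of vesicles that leave the ER. With TMM factors over the listed genes, 2 of the 3 genes were the same for Nus1, 2 of 3 for Ssr3 and 1 of 3 for Ssr1. Dnajc3 then had a correlation of 0.91 with Nus1, while Hspa8 had one of 0.34 with Ssr1. As the highest of 95 correlations over 9 libraries, the values of the named genes are raised by the picking and carry no test.

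**Figure D5:**
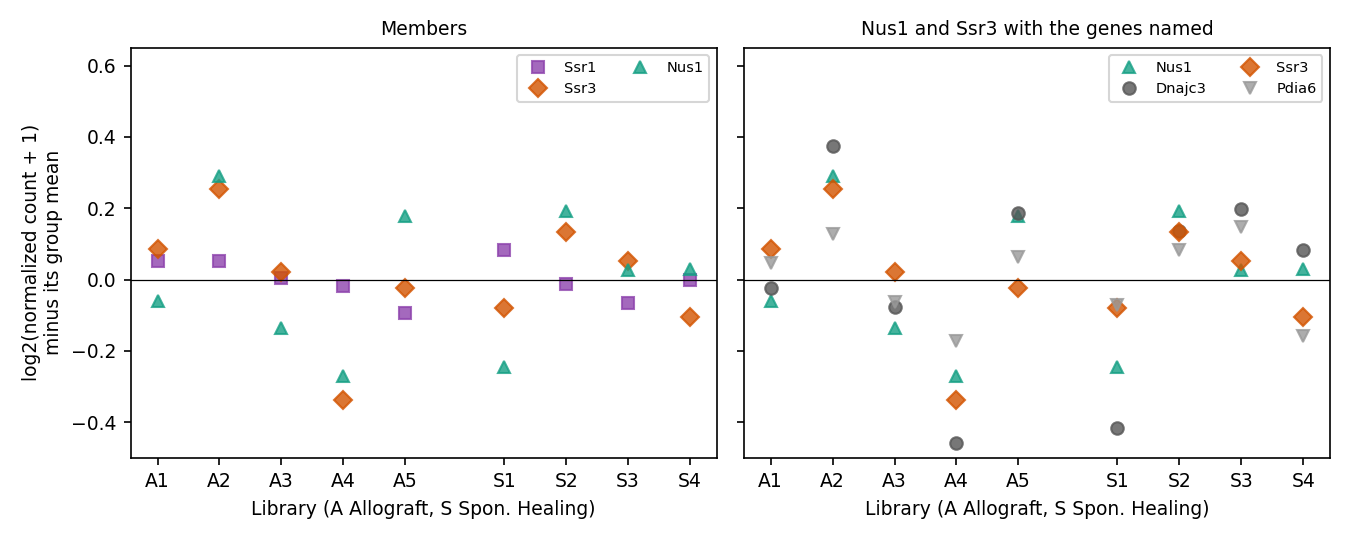
Deviation of log2(normalized count + 1) from its group mean in each library, for the 3 members (left) and for Nus1 and Ssr3 with Dnajc3 and Pdia6 (right). Ssr3 and Nus1 are both high in Allograft replicate 2 and both low in Allograft replicate 4, while Ssr1 stays between -0.09 and 0.08. Ssr3 and Nus1 have opposite signs in Allograft replicates 1, 3 and 5 and in Spon. Healing replicate 4.

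The table holds 98 of the 17100 genes of the authors' comparison, and the counts of listed pathway genes below were not tested against that share. Of 31 genes of the translocon, the TRAP complex, signal recognition and signal peptidase (30 of the names are in the gene annotation), 2 were listed. These were Ssr1 and Ssr3, and both were higher in Allograft. The other TRAP subunits, Ssr2 and Ssr4, and the Sec61 subunits were not listed. Of 32 genes that make dolichol and assemble the sugar tree on it, 1 was listed, Nus1, and its partner Dhdds was not. The 98 listed genes hold the lowest p-values of the authors' comparison. A gene that was not listed therefore had a higher p-value there or was not among the 17100 genes. Of 11 genes that supply isoprenoids through the mevalonate pathway 0 were listed.

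Of 23 genes of the oligosaccharyltransferase and of glycan trimming, 1 was listed. This was Magt1, an oxidoreductase subunit of the form of the transferase that works after translocation. Magt1 had 724, 1108, 692, 749 and 853 normalized counts in Allograft replicates 1 to 5, against 515, 643, 599 and 551 in Spon. Healing replicates 1 to 4. Its groups did not overlap, and its log2 fold change was 0.51 (SE 0.14), close to that of Ssr3. Hspa5, the ER chaperone BiP that binds chains as they emerge from the translocon, had a log2 fold change of 0.89 (SE 0.15), above all 3 members, and the difference between these fold changes was not tested.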

How the data were processed

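Total RNA from pulverized maxillae was made into CEL-Seq2 libraries, which read the 3' ends of polyadenylated RNA, from 2 ng of RNA each. The authors trimmed reads with cutadapt, aligned them to GRCm38 (Ensembl release 99) with TopHat and counted them strand-specifically with htseq-count. Collapsing of reads by molecular identifier is not given in the sources used here. The deposited values are raw counts and the normalized signal, which is the raw count over the library's DESeq2 size factor (the ratio of both columns was constant within each library). The deposited table also holds the authors' mean signal, fold change, p-value and adjusted p-value, read only to check the selection: all 98 adjusted p-values are under 0.1 and match a Benjamini-Hochberg adjustment over 17100 genes. In 86 genes the authors' mean was over 1% away from that of the 9 libraries, and the cause was not tested.

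The 97 genes averaging 3 or more raw counts were fitted in R 4.3.3 with edgeR 4.0.16 (robust quasi-likelihood, no covariates, the authors' size factors). The fit was also run on simulated counts with the same dispersion for all genes and with genes that do not differ. Such counts are unlike this selected table, so that run checks the code only. As edgeR returns no SE, it was taken as the size of the log2 fold change over the root of its F statistic. Alternatives were TMM and median-of-ratios factors over the listed genes, DESeq2 1.42.0, limma-voom (limma 3.58.1), other count filters, replicate blocks and each library left out. Copies of transcript ends were searched with blastn 2.17.0 and promoter windows by exact match. The members and all gene lists were chosen with earlier results of these data known. Genes named are the members, listed genes of the translocon, dolichol, oligosaccharyltransferase and mevalonate lists, Hspa5, and the 3 genes most like each member. Of these, 1 gene and 1 promoter window are not reported here. P-values set the difference between the groups against the spread between these libraries, which the fit moderates toward that of the 97 selected genes. The SE of each member therefore draws on the spread of the other genes too. The paper calls the replicates used for libraries biological, but the labels do not state that each library came from a separate mouse. The spread between libraries may therefore be partly technical.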

Additional observations from a re-analysis of the deposited data

How the results depend on the processing

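Every alternative kept the log2 fold changes of Ssr1, Ssr3 and Nus1 above 0. With TMM factors over the listed genes they were 0.033, 0.18 and 0.38 for Ssr1, Ssr3 and Nus1, and with median-of-ratios factors over the listed genes 0.026, 0.17 and 0.38. For Ssr1 both values were smaller than their SE (0.093 with TMM, 0.092 with median-of-ratios factors), so these scalings do not settle its direction. The genes called numbered 44 with TMM and 43 with median-of-ratios factors, in place of 96, and the genes without overlap between groups numbered 34 with TMM in place of 72. These factors centre the listed genes by construction. With 1 library left out, the log2 fold change ran from 0.33 to 0.38 for Ssr1, from 0.43 to 0.58 for Ssr3 and from 0.62 to 0.77 for Nus1. The genes without overlap ran from 73 to 80, a count that leaving a library out cannot bring under 72. The difference in the Ssr1 share ran from -3.40 to -1.43 percentage points, and the genes called from 93 to 96. In every such fit all 3 members were called.

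Whether the replicate numbers pair the libraries is not known, and correlations over selected genes cannot decide it. Same-numbered libraries had correlations of their deviations over 97 genes of 0.01 to 0.26 by title number and -0.38 to 0.24 by description number, and 4 of 8 libraries (title) and 2 of 6 (description) correlated best with their own number. A replicate block by title number gave 94 called genes and log2 fold changes of 0.37, 0.50 and 0.66 for Ssr1, Ssr3 and Nus1. A replicate block by description number over 6 libraries called 19 genes and none of the 3 members, with fold changes of 0.31, 0.48 and 0.77, while the same 6 libraries without the block, a fit added after seeing the data, called 78 genes and all 3 members. DESeq2, limma-voom and the count filters moved no member's fold change beyond its SD within groups. Library depth is unknown and genes outside the table were not analysed, which limits what can be said of the level of these differences.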
